A study of Mus musculus with 30 samples.

Results

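The miR-125 and miR-99/100 families are represented in the small RNA tables by 6 precursor genes, Mir125a, Mir125b-1, Mir125b-2, Mir99a, Mir99b and Mir100, out of 2194 named features. They were chosen by symbol, as the precursors of both families that lie in clusters with let-7 genes, and the choice was made with earlier results of these data known, so their levels and genotype contrasts are given as a description. All 6 were present and measured in all 5 organs. Small RNA was sequenced from 5 whole organs, namely spleen, liver, kidney, heart and brain, of 6 male mice that were 4 months old, of which 3 were Ftsj1-deficient (labelled Ftsj1_DF) and 3 were wild type (labelled WT). Each mouse gave 1 library per organ, which makes 30 libraries, and the labels name a set of 4 brothers and a pair of brothers among the 6 mice. Ftsj1 encodes a tRNA methyltransferase that places 2′-O-methyl groups, and the labels do not say how the gene was disrupted. No special treatment was given to either genotype. The labels assign 3 libraries to a second batch, 1 wild-type library each in heart, kidney and liver, while the other wild-type libraries and all Ftsj1-deficient libraries of those organs are in the first. The deposited tables hold no value per library, so the part of the batch in the contrasts was not tested.

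MicroRNAs are cut from hairpin precursors and guide Argonaute proteins to messenger RNAs that pair with bases 2 to 8 of the mature strand, the seed. miR-125 is the vertebrate relative of lin-4, the first microRNA found in Caenorhabditis elegans, and it is transcribed in clusters together with let-7, another regulator of developmental timing, and with the miR-99/100 family. miR-125 is known for roles in neuronal differentiation and in blood stem cells. miR-99/100 belongs to the wider miR-10 group and is known for targeting the growth regulator mTOR.

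The mature 5p strands are printed here because their seeds define both families and because their near identity bears on which precursor a read was counted for. Sequences are from RefSeq (GRCm38.p6), in capitals over the seed.
miR-125a-5p: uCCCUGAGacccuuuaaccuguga
miR-125b-5p: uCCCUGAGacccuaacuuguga
miR-99a-5p: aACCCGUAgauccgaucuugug
miR-99b-5p: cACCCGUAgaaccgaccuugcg
miR-100-5p: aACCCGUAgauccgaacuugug
let-7c-5p: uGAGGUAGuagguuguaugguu
The miR-125 strands share the seed CCCUGAG and the miR-99/100 strands share ACCCGUA, and the let-7 strand that lies between them in the genome has neither. miR-125b-5p is produced by both Mir125b-1 and Mir125b-2, and RefSeq gives the same 22 bases for the copies. miR-99a-5p and miR-100-5p differ at 1 base, position 16 counted from the 5′ end, while miR-99b-5p differs from each of them at 4 positions (1, 11, 16 and 21).

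The opposite strands of the miR-125b copies are not identical. They are shown, again with bases 2 to 8 in capitals, because they are the part of the hairpin by which reads of the copies can be told apart.
miR-125b-1-3p: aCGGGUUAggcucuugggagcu
miR-125b-2-3p: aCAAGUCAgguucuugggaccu
The tables give 1 value per precursor and do not separate its strands, and how reads that match both copies were assigned is not given in the sources used here. The split between Mir125b-1 and Mir125b-2 is therefore uncertain.

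Each family member sits at 1 end of a cluster, and all 9 precursors of the 3 clusters lie on the plus strand (GENCODE, GRCm38). The first cluster, Mir99b, Mirlet7e and Mir125a, spans 692 bp at chr17:17830188-17830879 inside the protein-coding gene Spaca6, where Mir125a overlaps an annotated exon and the others are intronic. The second, Mir99a, Mirlet7c-1 and Mir125b-2, spans 47408 bp at chr16:77598936-77646343 in introns of the long non-coding RNA gene Mir99ahg. The third, Mir100, Mirlet7a-2 and Mir125b-1, spans 50578 bp at chr9:41531425-41582002 in introns of the non-coding genes 3110039I08Rik and Gm49317, and Mir125b-1 also overlaps an exon of the sense-intronic gene Gm28119. In both long clusters the miR-125 precursor stands far from the rest. Mir125b-2 is 46522 bp from Mirlet7c-1, and Mir125b-1 is 45114 bp from Mirlet7a-2.

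The deposited tables hold no value per library. They give, for each organ, the mean normalized count over its 6 libraries and a DESeq2 contrast between the genotypes. Levels are therefore given as a member's share of the summed mean normalized counts of its organ, which summed to between 8511372 in heart and 21787131 in kidney. The members were well covered, since their lowest mean was 8377 normalized counts, for Mir125b-1 in spleen. Of 20 organ marker precursors, 16 were highest in the organ they mark. Mir9-1 and Mir1a-2 were listed at 0 in all organs, and Mir192 and Mir194-2, listed as kidney markers, were higher in liver. Organs were normalized separately, and in whole tissue fewer cells of a type and less RNA per cell cannot be told apart.

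The 6 precursors together made up 7.15% of the summed counts in brain and 5.12% in heart, against 2.06% in kidney, 0.815% in liver and 0.761% in spleen. Brain and heart were thus the organs rich in these families, and liver and spleen were the poorest. The miR-125 precursors summed to 5.17% in brain and 3.22% in heart, 1.31% in kidney, 0.400% in spleen and 0.319% in liver. The miR-99/100 precursors covered a narrower range, with 1.98% in brain and 1.89% in heart, 0.746% in kidney, 0.361% in spleen and 0.495% in liver. The ratio of miR-125 to miR-99/100 was accordingly highest in brain, at 2.61, and fell below 1 in liver alone, at 0.644.

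Mir125a was the most abundant member in every organ but liver. Its share was 2.54% in brain, 1.46% in heart, 0.938% in kidney, 0.194% in spleen and 0.139% in liver, so that brain stood 18.3 times above liver. The spread between libraries can be gauged only from the deposited standard error of the contrast, read as the SD per library that it implies if both genotypes vary alike. By that measure brain exceeded heart and kidney exceeded spleen, while heart and kidney, and spleen and liver, lay within the spread.

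Mir125b-1 had nearly the same share in brain, at 1.09%, and in heart, at 1.07%, a difference within the implied SD. It fell off sharply in kidney, at 0.143%, and was lowest in spleen, at 0.0780%, and liver, at 0.0658%. Mir125b-2 was at 1.54% in brain, 0.695% in heart, 0.231% in kidney, 0.127% in spleen and 0.115% in liver, and only the step between spleen and liver was within the implied SD. The copies thus ranked differently in heart, where Mir125b-1 had 1.54 times the level of Mir125b-2, whereas in the other organs the ratio was between 0.573 and 0.705. This ratio carries the uncertainty about reads that match both copies.

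In the miR-99/100 family, Mir99a was the member that departed from the brain-first order. Its share was 1.31% in heart, 0.764% in brain, 0.418% in kidney, 0.314% in liver and 0.137% in spleen, and its lead in heart over brain exceeded the implied SD. In liver it was the most abundant of all 6 members, above Mir125a. Mir99b was at 0.619% in brain, 0.290% in heart, 0.263% in kidney, 0.119% in spleen and 0.0828% in liver, with heart and kidney within the spread of each other. Mir100 was at 0.597% in brain, 0.294% in heart, 0.105% in spleen, 0.0989% in liver and 0.0644% in kidney, which made it the only member lowest in kidney. The order of members within an organ was the same when shares were divided by the length of the mature strand.

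**Figure D1:**
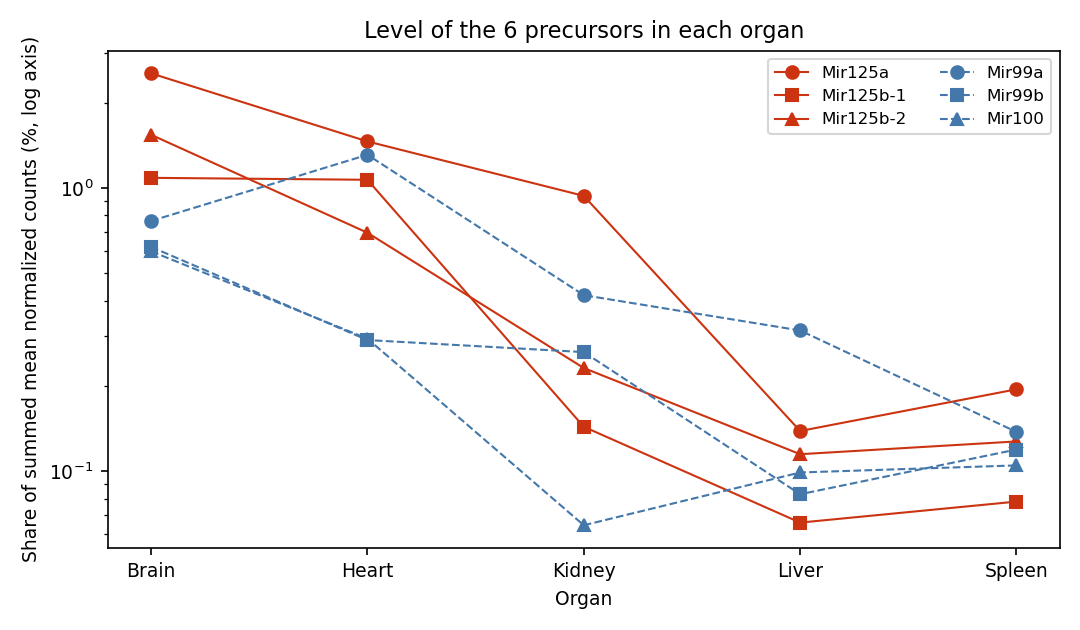
Share of each organ's summed mean normalized counts, in percent on a log axis, for the miR-125 precursors (red, solid lines) and the miR-99/100 precursors (blue, dashed lines) in 5 organs; each point is 1 deposited mean over 6 libraries. Mir99a alone peaked in heart, at 1.31%, but Mir125b-1 was nearly level in brain (1.09%) and heart (1.07%). Mir100 alone was lowest in kidney, at 0.0644%.

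Cluster-mates did not keep a fixed ratio across organs. Mir125a stood above its cluster-mate Mir99b in every organ, by 5.03 times in heart and by 1.63 times in spleen at the ends of the range. Mir125b-2 was 2.02 times as high as Mir99a in brain and 0.366 times as high in liver. Mir125b-1 was 3.64 times as high as Mir100 in heart and 0.665 times as high in liver. In both long clusters the miR-125 end thus outweighed the miR-99/100 end in brain and fell below it in liver. Liver was not the only such organ. Mir125b-2 was also below Mir99a in heart, kidney and spleen, at 0.531, 0.553 and 0.926 times, and Mir125b-1 below Mir100 in spleen, at 0.745 times.

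The let-7 precursors between them are listed here for comparison. Mirlet7c-1 was at 2.47% in brain and 1.55% in heart, 1.24% in kidney, 0.499% in spleen and 0.484% in liver. Mirlet7a-2 was at 1.72% in brain and 1.12% in heart, 0.877% in kidney, 0.931% in spleen and 0.630% in liver. Mirlet7e, between Mir99b and Mir125a on chromosome 17, was listed at 0 in all 5 organs although both neighbours were abundant, and Mirlet7f-1 was also at 0 among the other let-7 genes. Whether the counting of reads shared by let-7 copies bears on these zeros was not tested.

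The precursors whose profile over the 5 organs was most like that of a member were found by the root mean square (RMS) difference of centred log2 shares, among 194 features with a mean of at least 100 in every organ. For Mir99b these were Mirlet7c-1, at 0.21, and Mirlet7c-2, at 0.34. Mir100 was nearest to Mir139, at 0.34, and Mir664, at 0.47. Mir99a was nearest to Mir185, at 0.54, and Mirlet7b, at 0.60. Mir328 was the nearest to each miR-125 precursor, at 0.64 for Mir125a, 0.39 for Mir125b-2 and 0.67 for Mir125b-1, followed by Mir34a for Mir125a (0.69) and by Mir674 for Mir125b-2 (0.44) and Mir125b-1 (0.78). The nearest outsiders therefore came from beyond the clusters for every member except Mir99b, whose nearest was the let-7 gene of another cluster.

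The genotype contrast compared Ftsj1-deficient with wild-type mice within each organ. Neither genotype is named as the numerator of the log2 fold change in the deposited tables, so values are given with their sign and no direction is read from them. Statements that set organs side by side take the numerator to be the same genotype in all tables. None of the 30 member values had an adjusted p below 0.05 in the DESeq2 results the authors deposited, and the smallest was 0.286, for Mir125a in heart. At an unadjusted deposited DESeq2 p below 0.05, 7 of the 30 member values passed, all negative and all of them miR-125 precursors. The share of all features under that threshold is given with each organ, and many of those features are rare. Features with a mean of at least 1000 are nearer to the members in coverage. Of these, 6 of 213 in brain and 22 of 147 in heart were under it in either direction. In kidney they were 14 of 173, in spleen 10 of 159 and in liver 4 of 138, members included.

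In brain, the authors' deposited table gave log2 fold changes of -0.66 for Mir125a, -0.63 for Mir125b-1 and -0.04 for Mir125b-2, with standard errors of 0.32, 0.31 and 0.25. The miR-99/100 values in that deposited table were smaller in size than those of the first pair, at -0.09 for Mir99a, -0.15 for Mir99b and -0.36 for Mir100. Mir125a and Mir125b-1 had unadjusted deposited DESeq2 p-values of 0.0402 and 0.0446, beside 1.07% of all brain features negative and 1.17% positive under that threshold, and 0% of brain features passed after adjustment. The miR-125b copies differed most here, Mir125b-1 minus Mir125b-2 being -0.59 with a 95% interval of -1.38 to 0.20, which includes 0. In the other organs that difference was between -0.09 and 0.05.

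In heart, all miR-125 precursors were again negative in the authors' deposited table, at -0.81 for Mir125a (standard error 0.35), -0.52 for Mir125b-1 (0.29) and -0.51 for Mir125b-2 (0.27). The deposited values of Mir99a and Mir99b were slightly positive, at 0.07 and 0.15, and Mir100 was at -0.31. Mir125a was the only member under the unadjusted threshold, with a deposited DESeq2 p of 0.0210, where 1.99% of heart features were negative and under it, and 3.34% were positive and under it. Of the 355 heart features with an adjusted p, 1.13% passed after adjustment.

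Kidney held the most extreme member value. The authors' deposited table gave Mir125a a log2 fold change of -1.77 with a standard error of 0.62, a fold of 0.294 with a 95% interval of 0.126 to 0.686. Of the 173 kidney features with a mean of at least 1000, 1 had a lower log2 fold change. It was Mirlet7b, at -2.62 (1.16) and without a deposited p. The features next above Mir125a were also let-7 precursors. They were Mirlet7c-2, Mirlet7c-1, Mirlet7d, Mirlet7a-1 and Mirlet7a-2, from -1.63 to -1.28. Among the members, Mir125b-2 and Mir125b-1 followed in the deposited table at -0.93 (0.47) and -0.89 (0.45). The miR-99/100 precursors were slightly above 0 in that deposited table, at 0.24 (0.35) for Mir99a, 0.17 (0.31) for Mir100 and 0.02 (0.29) for Mir99b. Each of these lay within its standard error of 0. Mir99b became -0.02 once the median of kidney features averaging at least 1000 was subtracted, and 0.05 with the median of those averaging at least 10. Unadjusted deposited DESeq2 p-values were 0.00461 for Mir125a, 0.0449 for Mir125b-2 and 0.0476 for Mir125b-1. The background was 3.33% of kidney features negative and 1.17% positive under that threshold, and 0% passed after adjustment.

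In liver, the authors' deposited table put all miR-125 precursors near -1, with Mir125b-1 at -1.17 (0.59), Mir125b-2 at -1.08 (0.55) and Mir125a at -0.98 (0.68). No feature among the 138 with a mean of at least 1000 was lower than Mir125b-1, and the 1 lower than Mir125b-2 was Mir125b-1 itself. The copies share a mature strand, so their ranks are not separate results. Mir99a was at -0.38 (0.28), Mir100 at -0.13 (0.28) and Mir99b at -0.03 (0.30) in the deposited table, where Mir99b became 0.05 on subtracting the median of liver features averaging at least 1000 and stayed at -0.03 with that of features averaging at least 10. Mir125b-1 had an unadjusted deposited DESeq2 p of 0.0462, beside 2.18% of liver features negative and 1.72% positive under the threshold and 0.229% that passed after adjustment. Relative depth was uneven in liver, where the size factors recovered from the means of rare features were 0.500, 0.601 and 0.729 for 3 libraries and 1.45, 1.54 and 2.15 for the other 3, a ratio of 4.31 between the extremes, against 1.92 in kidney and 3.91 in heart. The tables do not tie these factors to mice or genotypes, and their part in the liver values was not tested.

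In spleen the sign of the miR-125 precursors was turned round. The authors' deposited table gave 0.39 for Mir125a (0.25), 0.23 for Mir125b-2 (0.26) and 0.21 for Mir125b-1 (0.26), all positive. The miR-99/100 values in the deposited table were all negative, at -0.41 for Mir100 (0.22), -0.37 for Mir99b (0.21) and -0.07 for Mir99a (0.22). No member passed the unadjusted threshold in spleen, where 0.828% of features were negative and under it, 2.65% were positive and under it, and 0% passed after adjustment.

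**Figure D2:**
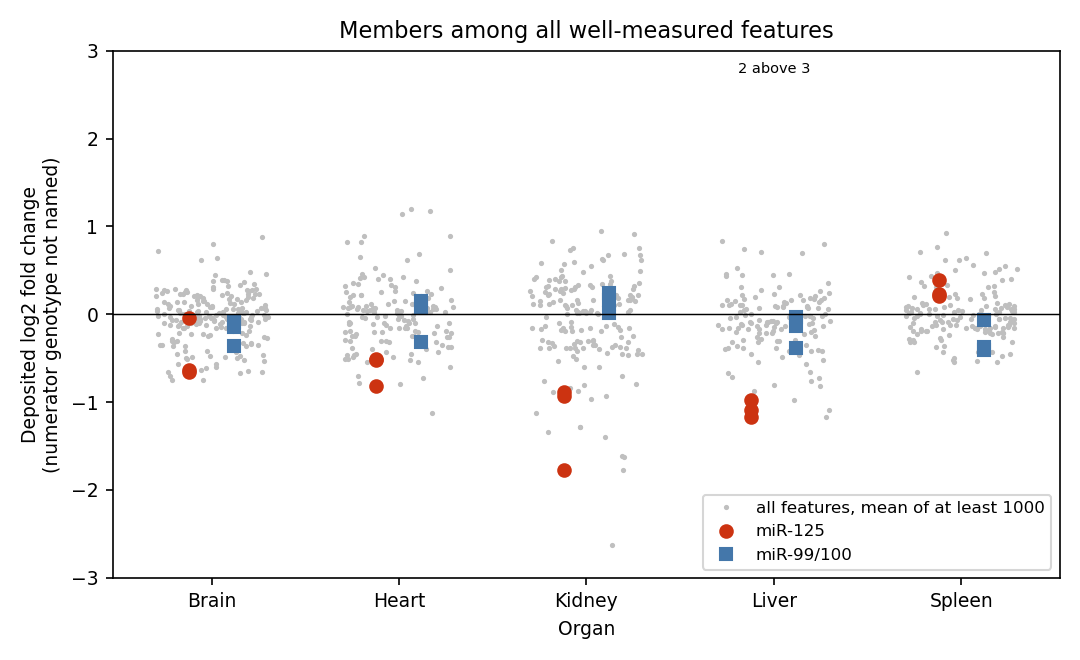
Deposited log2 fold change (vertical axis, numerator genotype not named) of the miR-125 precursors (red circles) and the miR-99/100 precursors (blue squares) in each organ, over all features with a mean of at least 1000 (grey, spread sideways at random); 2 liver features above 3 are outside the axis. The miR-125 values lay at the low end of the cloud in kidney and liver, and above 0 in spleen.

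Over the 5 organs, 12 of 15 miR-125 values and 10 of 15 miR-99/100 values in the authors' deposited tables were negative. Of all features with a mean of at least 1000, between 44.5% in kidney and 59.4% in liver were negative. The member values are not independent, since the miR-125b copies share a mature strand and the same mice gave all organs. In kidney all miR-125 values were negative and all miR-99/100 values positive, except that Mir99b fell below 0 with the median of features averaging at least 1000 subtracted, and in spleen the signs were the other way round. The kidney values of miR-99/100 lay within their standard errors of 0, and in spleen the 95% interval of every member included 0. The median log2 fold change of the miR-125 precursors was -0.63 in brain and -0.52 in heart, -0.93 in kidney, 0.23 in spleen and -1.08 in liver, and that of the miR-99/100 precursors was -0.15 in brain and 0.07 in heart, 0.17 in kidney, -0.37 in spleen and -0.13 in liver. The median over all features with a mean of at least 1000 lay between -0.08 in liver and 0.04 in kidney. The deposited standard errors of the miR-125 precursors were also larger in kidney, from 0.45 to 0.62, and in liver, from 0.55 to 0.68, than those of miR-99/100, from 0.29 to 0.35 in kidney and from 0.28 to 0.30 in liver. In spleen they were close, at 0.25 to 0.26 for miR-125 and 0.21 to 0.22 for miR-99/100.

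Taking each cluster by itself, the difference between the log2 fold changes of its miR-125 and its miR-99/100 precursor was negative in 11 of 15 comparisons. The exceptions were the 3 clusters in spleen and the chromosome 16 cluster in brain. For Mir125a minus Mir99b, which lie within 692 bp, the difference was -0.51 in brain and -0.96 in heart, -1.78 in kidney, 0.76 in spleen and -0.96 in liver. Its 95% intervals left out 0 in heart (-1.78 to -0.15), kidney (-3.14 to -0.43) and spleen (0.12 to 1.40). For Mir125b-2 minus Mir99a the difference was 0.05 in brain and -0.58 in heart, -1.18 in kidney, 0.30 in spleen and -0.70 in liver, and its interval left out 0 in kidney alone (-2.31 to -0.04). For Mir125b-1 minus Mir100 it was -0.27 in brain and -0.21 in heart, -1.06 in kidney, 0.61 in spleen and -1.04 in liver, with 0 inside every interval. These intervals treat the precursors as independent although they were read in the same libraries.

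The let-7 precursors of the clusters were negative in every organ. The authors' deposited tables gave Mirlet7c-1 log2 fold changes of -0.67 in brain and -0.78 in heart, -1.62 in kidney, -0.29 in spleen and -0.47 in liver. Mirlet7a-2 was at -0.64 in brain and -0.72 in heart, -1.28 in kidney, -0.13 in spleen and -0.29 in liver in the deposited tables. The difference Mir125b-2 minus Mirlet7c-1 was 0.63 in brain and 0.27 in heart, 0.68 in kidney, 0.52 in spleen and -0.62 in liver. Mir125b-1 minus Mirlet7a-2 was 0.01 in brain and 0.21 in heart, 0.39 in kidney, 0.34 in spleen and -0.88 in liver. Every one of these intervals includes 0. The let-7 precursors also stood below miR-99/100, with a negative difference in 9 of 10 comparisons and 3 intervals that left out 0. Mirlet7c-1 minus Mir99a was -1.86 in kidney (-3.17 to -0.55) and -0.85 in heart (-1.59 to -0.10). Mirlet7a-2 minus Mir100 was -1.45 in kidney (-2.64 to -0.26) and positive in spleen, at 0.28. A distance from miR-99/100 was thus not particular to miR-125. Of the 8 measured let-7 and Mir98 precursors outside the clusters, all were negative in brain, heart and kidney, 7 in liver and 5 in spleen, and their median was -0.97 in kidney and -0.02 in spleen.

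**Figure D3:**
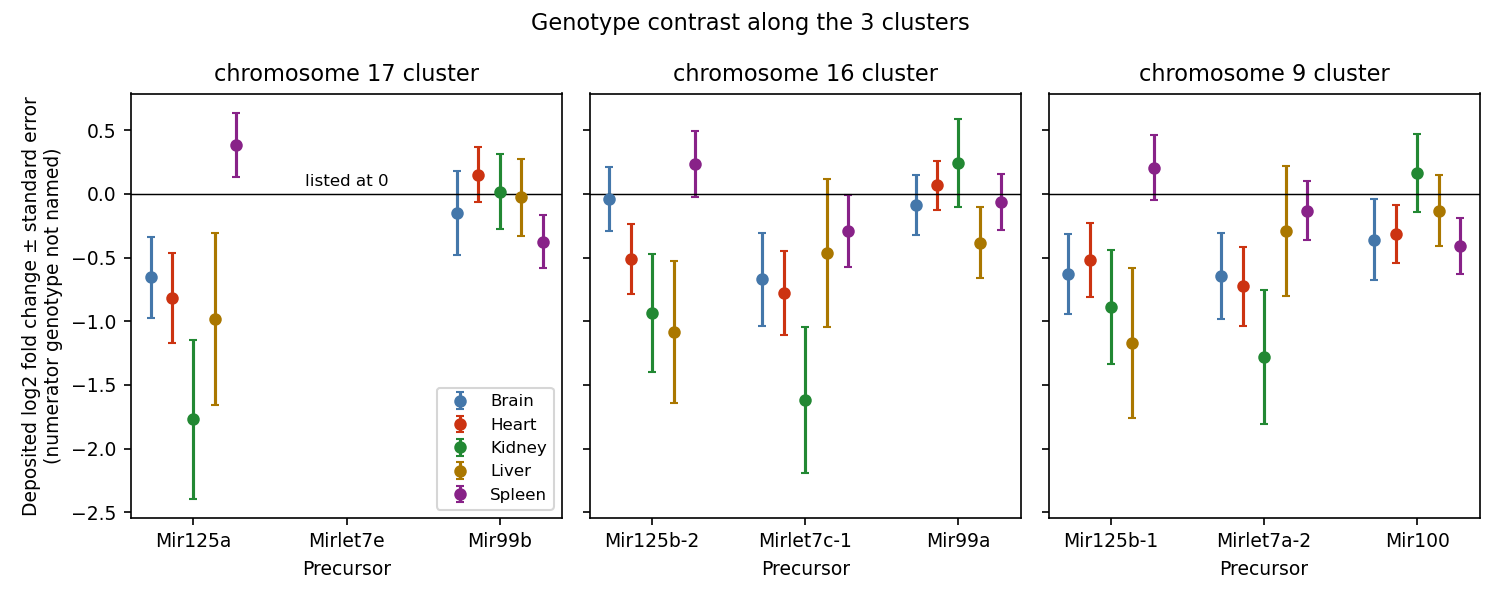
Deposited log2 fold change with its standard error (vertical axis, numerator genotype not named) for the miR-125, let-7 and miR-99/100 precursors of each cluster, coloured by organ. At the miR-99/100 end the values stayed between -0.41 and 0.24, while the miR-125 end ran between -1.77 and 0.39; Mirlet7e was listed at 0 and has no value.

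Pairs of precursors were also compared over the 5 organs by the RMS difference of their log2 fold changes. Precursors of the same family but different clusters had a median RMS difference of 0.27 over 7 pairs and a range of 0.19 to 0.49. The lowest value was that of the let-7 pair, and the pairs within miR-125 ran from 0.27 to 0.49. Pairs of miR-125 with let-7 overlapped the latter, at 0.39 to 0.56. Precursors of different families in the same cluster were farther apart, with a median of 0.70 over 7 pairs and a range of 0.47 to 1.08. For different families in different clusters the median was 0.75 over 14 pairs, close to the median of the same-cluster pairs. Mir99b and Mir99a were at 0.24 although they lie on different chromosomes, and Mir125a and Mir99b were at 1.08 although they lie within 692 bp. The distance between Mir125b-1 and Mir125b-2, at 0.27, includes reads that match both. Outsiders were sought among features with a mean of at least 1000 in all organs. For each miR-99/100 precursor an outsider was nearer than its family, at 0.13 for Mir99b, 0.11 for Mir99a and 0.17 for Mir100. Pairs within that family ran from 0.24 to 0.28. Mirlet7d was nearer to Mir125a, at 0.34, than Mir125b-1 was, at 0.43, whereas Mir125b-2 was the nearest to Mir125b-1. Pairs share libraries and precursors, and the outsiders were chosen after their values were seen, so these values are a description.

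**Figure D4:**
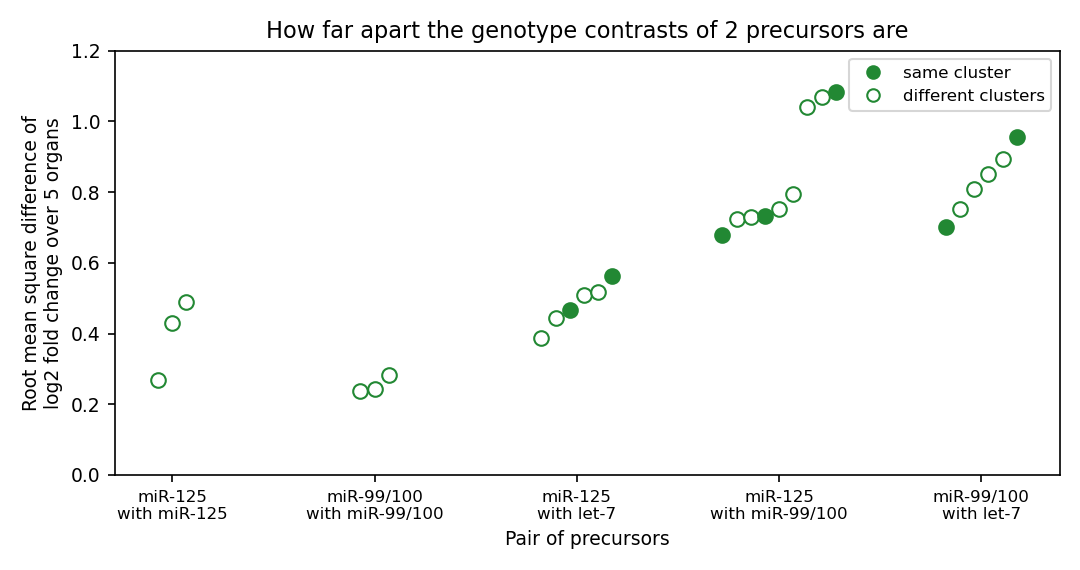
RMS difference, over 5 organs, between the deposited log2 fold changes of pairs of precursors, grouped by family; filled circles are pairs of the same cluster and open circles pairs of different clusters. The miR-125 with miR-99/100 pairs lay between 0.68 and 1.08, above all pairs within a family, and same-cluster pairs did not stand apart.

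For each miR-125 precursor the widest gap between organs involved spleen, set against kidney for Mir125a and against liver for the miR-125b copies. Liver minus spleen was -1.32 for Mir125b-2 (-2.52 to -0.12) and -1.38 for Mir125b-1 (-2.64 to -0.12). For Mir125a the log2 fold change in kidney minus that in spleen was -2.15, with a 95% interval of -3.47 to -0.83. The same difference was -1.17 for Mir125b-2 (-2.21 to -0.12) and -1.10 for Mir125b-1 (-2.11 to -0.08). For Mir99a, Mir99b and Mir100 it was positive, at 0.31, 0.39 and 0.57, and each interval included 0. Each miR-125 precursor had 3 of 10 organ pairs with an interval that left out 0, all of them involving spleen, and each miR-99/100 precursor had 0 of 10. The share of all features with such intervals was not computed, so these counts have no background. Lower values in kidney than in spleen were not particular to miR-125. Mirlet7c-1 was at -1.62 in kidney and -0.29 in spleen, Mirlet7a-2 at -1.28 and -0.13, and Mirlet7c-2 at -1.63 and 0.61. Intervals between organs were not computed for let-7. The miR-125b copies share a mature strand, so their counts are not separate results. The organs came from the same mice, and the intervals treat them as independent.

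Markers of blood vessel cells, which every organ holds, are given beside the kidney and spleen values. Mir126a, an endothelial microRNA, had a deposited log2 fold change of 0.68 (standard error 0.41) in kidney and 0.01 (0.23) in spleen in the authors' tables. Mir143 and Mir145a, which mark vascular smooth muscle, were at 0.63 (0.45) and -0.16 (0.29) in kidney and at -0.47 (0.30) and -0.14 (0.24) in spleen in the authors' deposited tables. Mir143 was the most abundant feature of both organs, with 21.1% of the summed counts in kidney and 25.4% in spleen. The part of these markers in the results was not tested.

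Other precursors with the seed of a member were few. Mir351 carries the miR-125 seed, printed here to show how far the strands differ beyond it.
miR-351-5p: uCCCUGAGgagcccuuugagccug
It was rare, between 0.00810% in brain and 0.0266% in kidney. Its deposited log2 fold change in the authors' tables was negative in every organ, at -0.08 in brain and -0.38 in heart, -0.40 in kidney, -0.12 in spleen and -0.55 in liver. In spleen it was thus on the other side of 0 from the miR-125 precursors, within its standard error of 0.23. Mir6367 and Mir6394 share that seed as well and were at or near 0 reads in every organ, and no precursor outside the family carried the miR-99/100 seed in the RefSeq table.

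The relatives Mir10a and Mir10b differ from miR-99/100 in the seed, as the strand of Mir10a shows.
miR-10a-5p: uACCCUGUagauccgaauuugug
Their organ profile was unlike that of the members, with 6.38% for Mir10a and 4.36% for Mir10b in kidney against 0.0448% and 0.0400% in brain. Their deposited log2 fold changes in the authors' tables were close to those of Mir100 in kidney, at 0.22 for Mir10a and 0.21 for Mir10b, and in spleen, at -0.36 and -0.31. In liver they were positive, at 0.14 and 0.18, where Mir100 was at -0.13. In brain they were at -0.03 and -0.09, against -0.36 for Mir100 in the deposited table, and in heart at -0.20 and -0.54, against -0.31.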

How the data were processed

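RNA was extracted with a phenol-based reagent from pulverised organs, and small RNA libraries were built with the NEXTflex kit, per the labels' protocols. The submitters' processing notes name featureCounts (Subread 2.0.3) for counting, GRCm39 as the build and DESeq2 for the comparison. Which aligner, annotation and DESeq2 model were used, and how reads matching several precursors were handled, is not given in the sources used here. The authors deposited 1 table per organ. Its mean normalized count is a signal, counts divided by size factors and averaged over 6 libraries, per the file headers. The fold change and its error were deposited as log2 values. Its Wald statistic is a score, per the file headers, and the authors deposited the p-value and adjusted p-value that belong to it. A row without a name, at most 1.82e-05% of an organ's total, was left out. There were 0 unused per-sample columns.

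The planned edgeR test needed counts per library, so the authors' adjusted p was used at 0.05. Members and lists were chosen with earlier results of these data known. Named genes were the 6 members, their let-7 neighbours, the other let-7 genes and Mir98, precursors that share a member's seed, Mir10a and Mir10b, and the 2 nearest outsiders of each member by organ profile; vessel and organ markers came from fixed lists. Intervals are 95% normal intervals from combined deposited standard errors. Of 14 listed let-7 and Mir98 genes, 12 matched a feature. Positions are from GENCODE and sequences from RefSeq, both on GRCm38, which is not the build of the tables. The 6 size factors per organ were recovered from means of rare features, each a whole number of reads over those factors at a tolerance of 1e-09. The recovery of size factors and the adjustment of p-values were tested on simulated data, and the other steps were not. Analyses used Python 3.11.15, pandas 2.3.3, numpy 2.4.6, Biopython 1.88 and matplotlib 3.10.9. The deposited p-values are for a genotype difference, judged against the variation among 3 libraries per genotype and organ. Some of these mice are brothers. In heart, kidney and liver a wild-type library is from the second batch, so variation between mice and between batches cannot be told apart there.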

Additional observations from a re-analysis of the deposited data

How the results depend on the processing

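No paired analysis was possible because the tables hold no values per library, and for the same reason no replicate was left out in turn. Over the alternatives tried (other denominators and a rank for the level, other adjustments of the deposited p-values, log2 fold changes minus an organ's median, the miR-125b copies averaged, and other filters and measures for likeness), 91 values stayed on their side of the threshold or within their spread, and 1 moved beyond its spread. That one was the members' summed share in spleen, which was 1.02% without Mir143, the most abundant feature, against 0.761% with it. Many of the 91 were log2 fold changes minus an organ's median. Those medians lay between -0.08 and 0.04, against member standard errors of 0.19 to 0.68, so these values could hardly leave their spread. The sign changes of Mir99b given below are counted among the 91. The count of members highest in brain was 5 with shares of all features and 4 with shares of microRNA symbols or without each organ's most abundant feature, since Mir125b-1 is nearly level in brain and heart. The deposited log2 fold changes of Mir99b, at 0.02 in kidney and -0.03 in liver, became -0.02 and 0.05 once the median of features averaging at least 1000 was subtracted, and kept their sign with that of features averaging at least 10. No member had an adjusted p below 0.05 under any of the adjustments, where 7 of 30 had an unadjusted deposited p below 0.05 by DESeq2. The members' means were at least 8377 normalized counts, and each contrast rests on 3 libraries per genotype.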

Other observations

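Among features with a mean of at least 1000 in all organs, the contrast nearest to that of Mir125a belonged to Mirlet7d, with an RMS difference of 0.34 over the 5 organs, followed by Mirlet7c-2 at 0.38; these and the following precursors were chosen after their values were seen. Mirlet7c-2 was also positive in spleen, where its deposited log2 fold change in the authors' table was 0.61 with a standard error of 0.26, against 0.39 for Mir125a. Mir328, the nearest outsider of the miR-125 precursors by organ profile, was also the nearest to Mir125b-2 by contrast, at 0.27. Its deposited log2 fold changes in the authors' tables were 0.05 in brain and -0.35 in heart, -1.28 in kidney, 0.06 in spleen and -0.67 in liver. Mir455 was the nearest outsider to Mir125b-1 by contrast, at 0.35, and its lowest deposited value in the authors' tables was in liver, at -0.87 (standard error 0.43). For the miR-99/100 family the nearest were Mir335 to Mir99b, at 0.13, Mir16-1 to Mir99a, at 0.11, and Mir146 to Mir100, at 0.17. Mir10a and Mir10b were among the 5 nearest to Mir100, at 0.20 and 0.22.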
